A study of Mus musculus with 12 samples.

Results

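The RNA exosome subunits Exosc1 to Exosc10 were followed across 12 RNA sequencing libraries of G1E-ER-GATA-1 cells. The members were taken by gene symbol, and the set was picked with earlier results of these data known. Of the 10 named genes, 9 have a row among the 25097 genes of the tables, and all 9 had enough counts to be tested. Exosc6 has no row under its identifier, and its expression was not analysed here. An annotated transcript of the alanyl-tRNA synthetase gene Aars covers all 1326 exon bases of Exosc6, and that transcript is listed in the Aars row, so no value can be given for Exosc6 alone.

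G1E-ER-GATA-1 cells are a mouse erythroid precursor line without its own GATA-1, in which an estrogen receptor fusion of GATA-1 becomes active when beta-estradiol is added. The groups had 3 libraries each. They were untreated WT cells, WT cells with 1 µM beta-estradiol for 48 h, Alas2 cis-element-mutant (double mutant) cells with the same estradiol treatment, and such mutant cells with estradiol and 1 mM 5-aminolevulinic acid (5-ALA). All groups share the GATA-1-null background and the fusion protein, and all were grown with erythropoietin and Kit ligand. Alas2 encodes the erythroid enzyme for the first step of heme synthesis, and 5-ALA is the product of that step. There are no untreated mutant libraries here, and the labels do not say from how many mutant clones or from how many separate cultures the libraries came. The p-values thus measure the spread between these libraries, which may be technical, and a difference between mutant and WT cells cannot be told apart from one that was there before estradiol.

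The RNA exosome is a barrel-shaped complex that trims and degrades RNA from its 3′ end in the nucleus and the cytoplasm. A ring of RNase PH-like proteins (Exosc4 to Exosc9), which has no catalytic activity of its own in mammals, is closed by a cap of RNA-binding S1/KH proteins (Exosc1 to Exosc3). RNA passes through this channel to the nuclease Dis3, and in the nucleus Exosc10 adds a further exonuclease. In erythroid precursors, earlier work on this cell system named the complex as a barrier to maturation and described GATA-1 and Foxo3 as repressors of its subunit genes, above all Exosc8.

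The libraries held 20309085 to 43548387 expected counts, and the smallest count of any member in any library was 157 (Exosc4). Levels between groups are given as CPM, counts scaled to a common library size with TMM factors, with the mean and SD over the 3 libraries of a group. Alas2 followed the labels: estradiol-treated WT cells had 4293 ± 15.1 CPM, and their mutant counterparts had 7.64 ± 2.20 CPM. All 11 erythroid markers were at 1 CPM or more in every group, and their summed level ran from 1041 to 1061 CPM in untreated cells and from 81398 to 82284 CPM in WT cells with estradiol. Megakaryocyte markers summed to 99.97 to 104.4 CPM in untreated cells and 75.3 to 76.0 CPM with estradiol, with 4 and 5 of 8 genes at 1 CPM or more. Mast cell markers summed to 134 to 149.7 CPM in untreated cells and 1.23 to 1.44 CPM in WT cells with estradiol, almost all of it from Cpa3, with 2 and 3 of 5 markers at 0. Granulocyte, lymphocyte and fibroblast markers were below 1 CPM for every gene in every group. The part of these other cell-type genes in the results below was not tested. In bulk RNA, fewer cells of a type and less RNA per cell cannot be told apart.

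The stretches before the start sites of the 3 members that show different settings are printed because neighbouring genes and motifs are described for them below. They come from the RefSeq promoter table (GRCm38.p6), on the strand of the subunit gene, and leave out transcribed bases of the gene and of its neighbour. Capitals mark a searched motif. For Exosc8 the stretch is chr3:54735394-54735538 (minus strand, 145 bases, 83.4% G and C), the whole interval between the annotated starts of Exosc8 and Alg5. For Exosc2 it is chr2:31670465-31670714 (plus strand, 250 bases, 45.6% G and C), where no gene starts on the other strand within 1000 bases. For Exosc5 it is chr7:25658982-25659152 (plus strand, 171 bases, 62.0% G and C), between the starts of Bckdha and Exosc5.
Exosc8: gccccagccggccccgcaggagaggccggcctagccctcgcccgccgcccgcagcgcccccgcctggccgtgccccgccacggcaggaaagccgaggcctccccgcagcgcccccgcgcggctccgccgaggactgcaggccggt
Exosc2: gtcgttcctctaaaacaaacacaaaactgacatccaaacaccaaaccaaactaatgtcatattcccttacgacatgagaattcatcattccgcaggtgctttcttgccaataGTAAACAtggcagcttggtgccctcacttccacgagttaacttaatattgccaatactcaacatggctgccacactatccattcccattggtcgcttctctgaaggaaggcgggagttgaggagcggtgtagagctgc
Exosc5: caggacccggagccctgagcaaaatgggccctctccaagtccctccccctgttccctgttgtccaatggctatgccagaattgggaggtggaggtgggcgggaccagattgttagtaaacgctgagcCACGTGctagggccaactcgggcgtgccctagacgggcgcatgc

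Windows from 250 bases before to 50 after the start were in that table for 8 of the 10 genes, in 9 windows. They were searched on both strands for 7 motifs. The GATA motif GATAA was in 0 of the 9 windows, against 25.4% of all 32851 windows of the same length. The forkhead motif TGTTTAC was in the windows of Exosc2 and Exosc6 (3.65% of all windows), and it is the capital run, on the other strand, in the Exosc2 sequence above. The E-box CACGTG was in that of Exosc5 (7.15% of all windows), as was the palindromic NRF1 motif, which runs past the end of the printed stretch (0.971%). The ETS motif CCGGAAG was in those of Exosc3 and Exosc10 (8.86%), and the E2F motifs TTTCCCGC and TTTGGCGC were in none (1.07% and 0.514%). A match is a description of letters, and its absence says only that these letters are not in this window. No factor binding was measured here.

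In untreated WT cells the 9 subunit transcripts together made up 1083 ± 7.504 TPM (a scaled share of all transcripts that takes length into account), and their levels differed by more than 10-fold. Exosc8, a ring subunit, and Exosc3, a cap subunit, were the most abundant at 251 ± 2.07 and 250.4 ± 6.38 TPM, and their libraries overlapped. Exosc7 followed at 119.6 ± 0.935 TPM. Exosc2 at 107 ± 2.08 TPM and Exosc5 at 106 ± 1.42 TPM overlapped each other, while Exosc10 at 89.4 ± 0.838, Exosc9 at 81.4 ± 5.99, Exosc1 at 56.4 ± 0.541 and Exosc4 at 20.2 ± 1.45 TPM each stood apart from their neighbours in the order.

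With estradiol the order changed. In WT cells Exosc3 was highest at 52.1 ± 4.59 TPM, and Exosc10 and Exosc9 came next at 29.9 ± 0.415 and 29.0 ± 1.37 TPM, with libraries that overlapped. Exosc8 had dropped to the fourth place at 15.3 ± 0.965 TPM. Exosc7 and Exosc5 (both 12.9 TPM) overlapped, as did Exosc1 and Exosc2 (11.05 and 10.95 TPM), and Exosc4 was lowest at 7.01 ± 1.99 TPM. In both mutant groups the order ran from Exosc3 through Exosc9, Exosc10, Exosc5, Exosc7, Exosc1, Exosc8 and Exosc2 to Exosc4. In mutant cells without 5-ALA the libraries of Exosc5 and Exosc7 overlapped, as did those of Exosc1 and Exosc8. With 5-ALA the libraries of Exosc9 and Exosc10 overlapped, as did those of Exosc1 and Exosc8. Those of Exosc3 in the 2 mutant groups lay between 44.0 and 52.9 TPM.

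As a share of the summed subunit TPM, which does not depend on scaling between libraries, Exosc8 went from 23.2 ± 0.0940% in untreated WT cells to 8.47 ± 0.520% with estradiol. It was at 6.64 ± 0.1003% in mutant cells and 6.84 ± 0.302% in mutant cells with 5-ALA. Exosc10 went the other way, from 8.26 ± 0.133% to 16.5 ± 0.666%, 14.7 ± 0.601% and 15.9 ± 0.261%, and Exosc9 from 7.51 ± 0.512% to 16.0 ± 1.24%, 19.3 ± 0.897% and 18.3 ± 1.09%. The share of Exosc3 was 23.1 ± 0.592%, 28.7 ± 1.60%, 22.9 ± 0.625% and 23.2 ± 0.633% in the same order of groups. Untreated and estradiol-treated WT libraries did not overlap in any of these 4 shares.

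**Figure D1:**
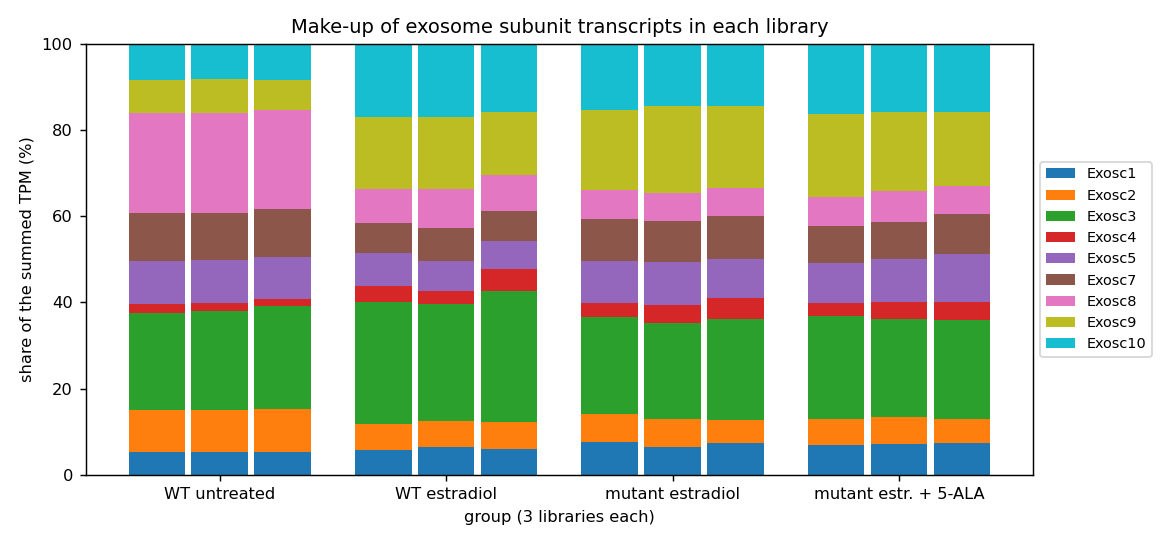
Stacked bars give the share of each of 9 subunits in the summed subunit TPM (y axis, percent) for each of the 12 libraries, 3 per group (x axis). The Exosc8 band shrinks from about 23.2% in untreated WT cells to 8.47% with estradiol, and the bands of Exosc9 and Exosc10 widen.

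The comparison of WT cells with and without estradiol asks how the subunit genes respond when GATA-1 activity is switched on. No time is given for the untreated cells. An effect of estradiol itself or of time in culture thus cannot be told apart from that of GATA-1 activity. All 9 tested subunits fell, by 2.12-fold (Exosc9) to 12.96-fold (Exosc8), and no library with estradiol reached the level of any untreated library for any of them. Among all 12115 tested genes, 46.4% were called lower in this comparison (edgeR quasi-likelihood test, adjusted p below 0.05) and 46.7% had lower libraries without overlap, so a fall as such was common. Falls of 2-fold or more were seen for 9 of 9 subunits against 30.3% of all genes, and of 4-fold or more for 6 of 9 against 16.3%. Some members lie close to these limits, so that over the 20 alternatives the subunit counts ran from 8 to 9 for 2-fold and from 4 to 6 for 4-fold. The median log2 fold change was -2.07 for the subunits and -0.03 for all tested genes. The summed CPM of the subunits was 651 ± 11.2 in untreated cells and 149 ± 1.00 with estradiol.

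Within the ring, Exosc8 (minus strand of chromosome 3, 54728678 to 54735393) stood at 107, 109.6 and 113 CPM without estradiol and at 7.80, 9.02 and 8.60 CPM with it. Its log2 fold change was -3.70 (SE 0.0512, adjusted p = 4.85e-32 by the edgeR test), and 5.35% of all tested genes had a larger fall. Exosc7 (chromosome 9, 123113215 to 123136129, plus strand) went from 63.0, 61.3 and 63.3 CPM to 7.47, 8.17 and 8.10 CPM, a log2 fold change of -2.98 (SE 0.0549). These 2 ring subunits ended at similar CPM from different starting levels, but CPM does not take transcript length into account. In TPM the WT libraries with estradiol did not overlap, at 14.23 to 15.94 for Exosc8 and 12.35 to 13.41 for Exosc7.

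Exosc5 (chromosome 7, 25659164 to 25671368, plus strand) had 57.5, 55.9 and 57.1 CPM without and 9.17, 8.0 and 8.06 CPM with estradiol (log2 -2.75, SE 0.0604). Exosc4 (chromosome 15, 76327397 to 76330677, plus strand), the ring subunit with the lowest level, went from 16.6 to 19.6 CPM in untreated libraries to 6.10 to 8.87 CPM (log2 -1.30, SE 0.145). Exosc9 (chromosome 3, 36552606 to 36565727, plus strand) kept the most of its level within the ring, at 51.3, 52.6 and 52.7 CPM before and 24.4, 25.9 and 23.2 CPM with estradiol (log2 -1.09, SE 0.0418). The 95% interval of the log2 fold change of Exosc8 (-3.80 to -3.59) lies far below the lower bound for Exosc9 (-1.17), so the genes of this ring did not fall by a common factor.

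In the cap, Exosc2 (chromosome 2, 31670715 to 31681349, plus strand) fell most, from 88.2, 90.2 and 96.4 CPM to 11.7, 10.5 and 11.8 CPM (log2 -3.01, SE 0.0528, adjusted p = 1.90e-29 by the edgeR test). Exosc3 (chromosome 4, 45316613 to 45342732, minus strand) ranged from 84.0 to 94.2 CPM untreated and from 21.1 to 23.1 CPM with estradiol (log2 -2.02, SE 0.0508). Exosc1 (chromosome 19, 41922292 to 41933423, minus strand) ranged from 47.7 to 49.3 CPM untreated and from 10.8 to 11.9 CPM with estradiol (log2 -2.07, SE 0.0597). The intervals of Exosc1 and Exosc3 overlap, and that of Exosc2 lies below both.

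Exosc10 (chromosome 4, 148558429 to 148582401, plus strand), the nuclear exonuclease, had 123, 120.2 and 127 CPM in untreated cells and 48.7, 48.1 and 46.8 CPM with estradiol. Its log2 fold change was -1.37 (SE 0.0333), among the 3 smallest falls beside those of Exosc4 and Exosc9. The highest adjusted p of the 9 subunits was 3.59e-06, that of Exosc4. The falls kept their direction and their call in all 180 repeats (9 genes, 20 alternatives each).

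**Figure D2:**
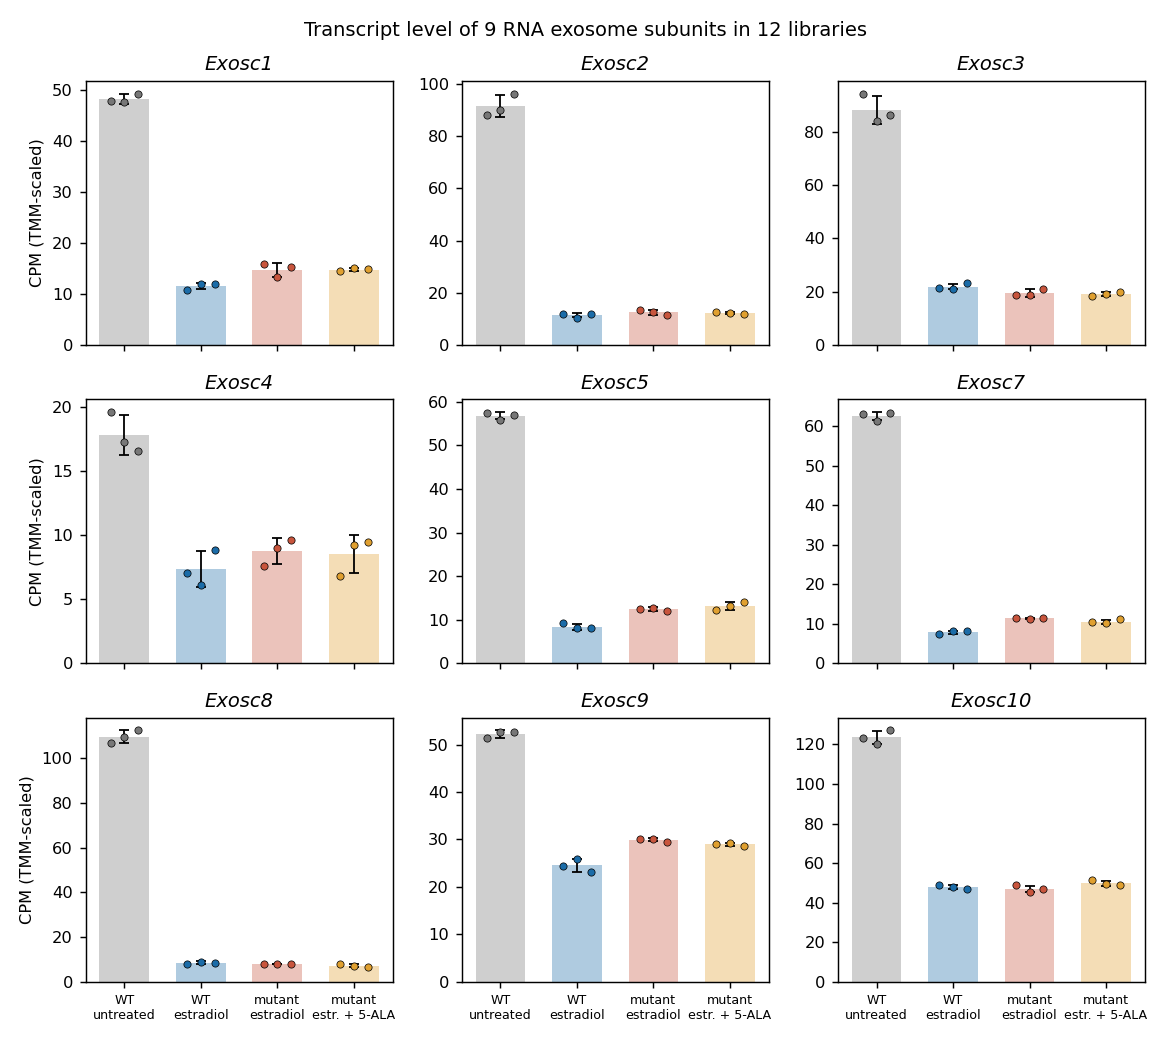
Each panel plots 1 subunit, with TMM-scaled CPM on a linear axis from 0 and the 4 groups on the x axis. Points are libraries, bars are group means and whiskers are SDs (n = 3). Untreated libraries stand above all treated libraries in every panel, from 107 to 113 against 6.62 to 9.02 CPM for Exosc8.

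Gata1 and Foxo3, named above as regulators, were both higher with estradiol. Gata1, whose row can hold reads of the fusion, had 444 ± 3.87 CPM in untreated cells and 868 ± 11.7 CPM with estradiol. Foxo3, a forkhead transcription factor gene, rose from 115 ± 2.72 to 1447 ± 20.6 CPM (log2 3.65, SE 0.0274). In mutant cells with estradiol Foxo3 was at 914 ± 7.98 CPM, lower than in WT cells (log2 -0.66, SE 0.0242), and with 5-ALA at 923 ± 24.4 CPM. Kit, the receptor gene for stem cell factor, had 534 ± 3.50, 17.7 ± 0.539, 3.68 ± 0.738 and 4.69 ± 0.532 CPM over the 4 groups. Whether any of these genes acts on the subunit genes was not tested.

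The other genes of the exosome pathway did not all follow the subunits. Dis3, the nuclease at the base of the barrel, fell from 189.6 ± 3.45 to 16.1 ± 0.467 CPM, a log2 fold change of -3.56 (SE 0.0393) that lies close to that of Exosc8. Its cytoplasmic relative Dis3l fell less (log2 -0.58, SE 0.0577), and Dis3l2, which works without the exosome barrel, rose (log2 0.24, SE 0.0365). These 3 nucleases differ clearly in size and sign of change.

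Of 14 nuclear cofactors, 8 fell and 5 rose, with a median log2 fold change of -0.85. Among all 12115 tested genes, 5621 were called lower and 5243 higher. Mphosph6, a binding partner of the nuclear exosome, fell from 29.3 ± 1.14 to 6.48 ± 0.839 CPM (log2 -2.18), and the cap-binding subunit gene Ncbp2 fell from 102 ± 4.62 to 28.0 ± 2.15 CPM (log2 -1.86). Zfc3h1, a factor that directs polyadenylated nuclear RNA to decay, rose from 72.6 ± 0.440 to 178 ± 5.41 CPM (log2 1.29).

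In the cytoplasmic Ski complex, which unwinds mRNA for the exosome, Ttc37 fell from 76.9 ± 1.71 to 14.3 ± 0.808 CPM (log2 -2.43) and Wdr61 had a log2 fold change of -1.26. The helicase gene Skiv2l rose from 80.9 ± 1.096 to 121 ± 3.71 CPM (log2 0.58), and Hbs1l, whose locus also encodes the bridge between Ski complex and exosome, had -1.04. Genes of other decay routes were mixed. Decapping and 5′ to 3′ decay had 6 of 10 genes higher and 4 lower (median 0.24), deadenylation 5 of 13 higher and 7 lower (median -0.24), and nonsense-mediated decay 6 of 8 higher and 2 lower (median 0.38). These counts stand beside 5243 higher and 5621 lower of all 12115 tested genes. Among the largest changes in these lists were those of the decapping enzyme gene Dcp2 (log2 -1.94), the deadenylation genes Pan3 (1.59) and Parn (-1.52), and Smg6, an endonuclease of nonsense-mediated decay (1.04). Over the 6 lists, 12 of 52 genes fell by 2-fold or more, against 30.3% of all tested genes.

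**Figure D3:**
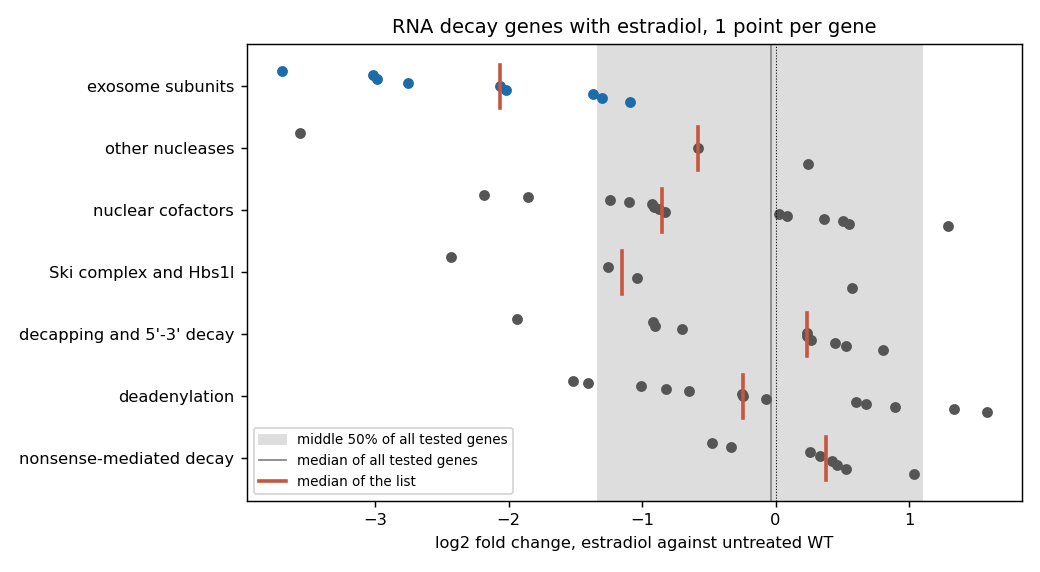
Each point is 1 gene, with its log2 fold change between estradiol-treated and untreated WT cells on the x axis and its list on the y axis; red bars are list medians, and the grey band is the middle 50% of all tested genes, from -1.33 to 1.09. The subunit median lies at -2.07, and the decapping and nonsense-mediated decay medians lie above 0.

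Of the members, 6 have a gene that starts within 1000 bases on the other strand, and these neighbours took different courses. Alg5, a glycosyltransferase gene that starts 146 bases from Exosc8, fell from 35.4 ± 1.24 to 6.48 ± 0.596 CPM (log2 -2.46, SE 0.0683), less than Exosc8. Zdhhc3, a palmitoyltransferase gene 10 bases from the start of Exosc7, fell from 106 ± 2.19 to 45.1 ± 0.665 CPM (log2 -1.23, SE 0.0326). Bckdha, a subunit gene of the branched-chain keto acid dehydrogenase that starts 183 bases from Exosc5, rose from 18.8 ± 0.642 to 41.2 ± 2.48 CPM (log2 1.13, SE 0.0507). Near the annotated start of Exosc3, the ubiquitin ligase adaptor gene Dcaf10 (631 bases) rose from 38.4 ± 1.47 to 132 ± 0.548 CPM (log2 1.78, SE 0.0324). The RefSeq window of Exosc3 used for the motifs lies at another start, inside the gene.

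Zdhhc16, 57 bases from Exosc1, rose from 29.1 ± 0.362 to 38.4 ± 1.34 CPM (log2 0.40, SE 0.0395). Oplah, whose exons overlap those of Exosc4, was at 1.23 ± 0.355 and 1.27 ± 0.0870 CPM (log2 0.01, edgeR adjusted p = 0.96). Thus 3 of the 6 neighbours rose, 2 fell and 1 was not called, while all 6 subunits fell. Of all 12115 tested genes, 5243 were called higher and 5621 lower. The Exosc8 and Alg5 pair shares the stretch printed above, as Exosc5 and Bckdha share theirs.

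**Figure D4:**
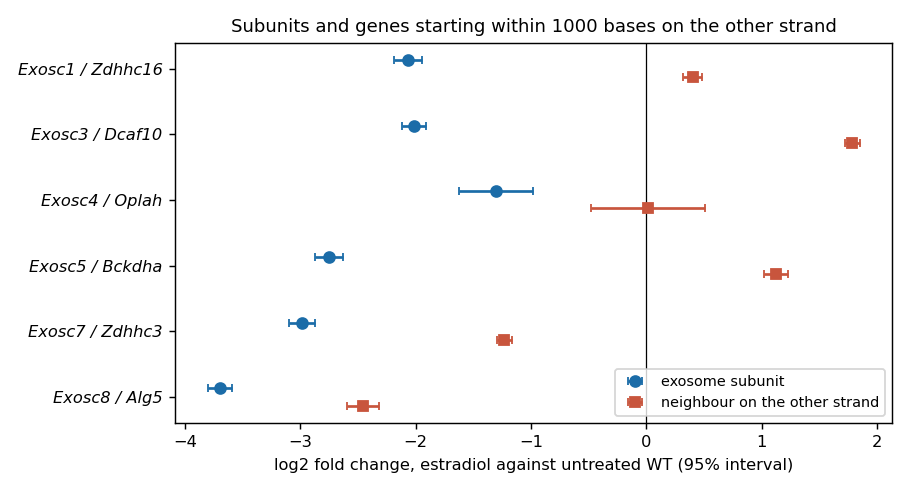
Points with 95% intervals give the log2 fold change with estradiol in WT cells (x axis) for 6 subunits (blue circles) and for the gene starting within 1000 bases on the other strand (red squares). The blue points lie between -3.70 and -1.30, and the red ones between -2.46 (Alg5) and 1.78 (Dcaf10).

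Some members share exon bases with a gene on the other strand, and whether strand was used in counting is not given in the sources used here, so reads there may belong to either gene. The shared part is 10.8% of the annotated exon bases of Exosc9 with the cyclin gene Ccna2, 19.8% of Exosc4 with Oplah, 5.66% of Exosc5 with Tmem91, 4.003% of Exosc3 with Dcaf10 and 2.05% of Exosc8 with Supt20. Ccna2 fell from 231 ± 5.01 to 13.9 ± 0.823 CPM, a log2 fold change of -4.05 against -1.09 for Exosc9. Supt20 had 70.6 ± 1.01 and 32.9 ± 2.13 CPM, and Tmem91 1.83 ± 0.240 and 1.84 ± 0.155 CPM. The antisense gene Gm13427 overlaps 12.4% of Exosc2 and has no row in the tables.

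The comparison of mutant with WT cells, both with estradiol, asks what differs when Alas2 expression is lost. The subunits differed little. Exosc5, Exosc7, Exosc1 and Exosc9 were higher in mutant cells, by 1.22- to 1.47-fold, and Exosc3 was lower by 1.12-fold. The other 4 were not called. Of all tested genes 35.1% were called higher and 33.6% lower, so a call as such was common. Of the 9 subunits 4 were called higher and 1 lower, and this split was not tested against that of all genes. The median log2 fold change was 0.28 for the subunits and -0.01 for all genes. Cell-type markers also differed between these groups. The erythroid ones summed to 30374 to 31879 CPM in mutant cells, below the WT range given above, and the megakaryocyte ones to 43.3 to 44.8 CPM, with 5 of 8 at 1 CPM or more and 1 at 0. The mast cell ones summed to at most 0.438 CPM, with 4 of 5 at 0.

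Exosc5 had 12.5, 12.8 and 11.95 CPM in mutant libraries against 9.17, 8.0 and 8.06 CPM in WT libraries (log2 0.56, SE 0.0692, adjusted p = 3.11e-08 by the edgeR test). Exosc7 had 11.5, 11.2 and 11.5 against 7.47, 8.17 and 8.10 CPM (log2 0.53, SE 0.0642). Exosc1 had 15.8, 13.3 and 15.3 against 10.8, 11.9 and 11.9 CPM (log2 0.34, SE 0.0663), and Exosc9 had 30.2, 30.1 and 29.5 against 24.4, 25.9 and 23.2 CPM (log2 0.28, SE 0.0445). For these 4 genes every mutant library was above every WT library, which held for 36.3% of all genes. All 4 remained far below their untreated WT level, for example 56.8 ± 0.842 CPM for Exosc5.

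Exosc8 was at 7.78, 7.97 and 7.79 CPM in mutant and 7.80, 9.02 and 8.60 CPM in WT libraries, which overlap (log2 -0.11, 95% interval -0.25 to 0.04, edgeR adjusted p = 0.218). The interval for Exosc10 was -0.11 to 0.04, that for Exosc2 0.01 to 0.28 (adjusted p = 0.0545) and that for Exosc4 -0.06 to 0.64, the widest of the 9. Exosc3 had 18.7, 18.6 and 21.1 against 21.5, 21.1 and 23.1 CPM, with overlap (log2 -0.16, SE 0.0600, edgeR adjusted p = 0.0196). The number of higher subunits ran from 4 to 6 over the 20 alternatives. Exosc2 was called higher in 9 of them (log2 0.14 to 0.30) and Exosc4 in 4 (0.29 to 0.44), and Exosc10 was called higher on the TPM scale (log2 0.14, limma adjusted p = 0.0101). The call of Exosc3 was lost in limma on log2(TPM + 1) (log2 -0.01) and without any of 5 libraries, namely WT estradiol replicates 1 and 3, mutant estradiol replicates 1 and 2, and 5-ALA replicate 2, where the adjusted p was 0.0601 to 0.135. On the TPM scale 5618 genes were higher and 2326 lower against 4258 and 4076 in the edgeR fit. The median of all genes moved to 0.12 there, and relative to it Exosc10 had a log2 difference of 0.02 and Exosc5 of 0.59.

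The nucleases Dis3l (log2 0.38, SE 0.0589), Dis3l2 (0.35, SE 0.0353) and Dis3 (0.17, SE 0.0518) were all higher in mutant cells. Of the nuclear cofactors 6 of 14 were higher and 5 lower (median 0.07). Tent4b, a noncanonical poly(A) polymerase that tags nuclear RNA for the exosome, was at 43.1 ± 0.965 CPM in mutant against 77.1 ± 1.33 CPM in WT cells (log2 -0.84), and Mphosph6 and the RNA-processing gene Srrt had 0.41 and 0.36. In the Ski complex, Ttc37 had 0.35 and Wdr61 0.12, and Skiv2l (-0.01) and Hbs1l (-0.02) were not called.

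In the other routes, decapping had 5 of 10 genes higher and 2 lower, with Dcp1b at 0.63 and Dcp1a, a paralog of it, at -0.53. Deadenylation had 5 of 13 higher and 4 lower, with Pan3 at -0.45. Nonsense-mediated decay had 2 of 8 higher and 6 lower, with Upf3a at 0.81. Over the 6 lists 23 of 52 genes were called higher and 17 lower, against 35.1% and 33.6% of all tested genes. None of the 52 genes fell by 2-fold or more, against 6.6% of all tested genes.

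Adding 5-ALA to mutant cells asks whether the product of the missing enzyme changes these transcripts. Only Exosc10 was called, 1.07-fold higher with 5-ALA, against 21.6% of all genes called higher and 21.0% called lower. No subunit was called lower by edgeR or DESeq2, and 1 of the 9, Exosc10, had an unadjusted p below 0.05. It had 48.7, 45.3 and 46.8 CPM without and 51.3, 49.3 and 49.1 CPM with 5-ALA, without overlap (log2 0.09, SE 0.0362, edgeR adjusted p = 0.0378). The call was lost in 13 of 20 alternatives, among them DESeq2 (adjusted p = 0.11) and a fit of the 2 groups alone (adjusted p = 0.0784), over all of which the adjusted p ran from 0.0205 to 0.238. In 2 of these 13, limma on log2(TPM + 1) and log2(TPM + 0.1), its sign turned to -0.07. Another 8 of the 13 left out 1 library, that is, each of the 3 WT estradiol and the 3 5-ALA libraries and mutant estradiol replicates 2 and 3, with values of 0.07 to 0.10.

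With 5-ALA the erythroid markers summed to 73883 to 79390 CPM, above the mutant range without it, and the megakaryocyte markers to 45.5 to 46.3 CPM. Mast cell markers summed to at most 0.108 CPM. For the other 8 subunits the log2 differences with 5-ALA lay between -0.12 (Exosc8) and 0.08 (Exosc5). Exosc8 had 7.83, 7.26 and 6.62 CPM with 5-ALA (95% interval of the log2 difference -0.27 to 0.02). Exosc7 had 10.4, 10.2 and 11.1 CPM, all below the 3 libraries without 5-ALA, with an interval of -0.23 to 0.02, and Exosc9 was likewise lower without overlap (28.6 to 29.2 against 29.5 to 30.2 CPM, interval -0.14 to 0.04). Libraries without overlap were found for 25.3% of all genes on the higher and 23.8% on the lower side. The intervals of these 8 genes stay within -0.38 and 0.29, the bounds of Exosc4.

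On the TPM scale the calls with 5-ALA were different. There 806 genes were called higher and 5719 lower, the median of all genes moved to -0.15, and 6 subunits were called lower. Relative to that median, the subunits' log2 differences on the log2(TPM + 1) scale lay between -0.15 (Exosc7) and 0.09 (Exosc10). Among the pathway lists Dis3 was higher with 5-ALA (log2 0.17, SE 0.0489) and Dis3l2 lower (-0.13, SE 0.0344). Tent4b rose from 43.1 ± 0.965 to 53.9 ± 2.04 CPM (log2 0.32), Hbs1l had 0.24, Dcp2 had -0.42 and Mphosph6 had -0.32. Over the 6 lists 11 of 52 genes were called higher and 12 lower in the edgeR fit. Of all tested genes 21.6% were called higher and 21% lower there, so these counts are near the background.

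Mutant cells with 5-ALA were also compared with WT cells with estradiol, which shares libraries with the 2 preceding comparisons. The same 4 subunits were higher, Exosc5 by 1.56-fold (log2 0.64, SE 0.0692, adjusted p = 2.99e-09 by the edgeR test), Exosc7 by 1.34-fold, Exosc1 by 1.28-fold and Exosc9 by 1.18-fold. Exosc8 (log2 -0.23, SE 0.0733, adjusted p = 0.00777) and Exosc3 (-0.19, SE 0.0609, adjusted p = 0.00779) were lower in the edgeR test. The libraries of Exosc8 overlapped (7.83 CPM in 5-ALA replicate 1, 7.80 CPM in WT estradiol replicate 1), and those of Exosc3 did not. Of all genes 33.3% were called higher and 29.0% lower. Without WT estradiol replicate 2 or 5-ALA replicate 3 the call of Exosc8 was lost (adjusted p = 0.0969 and 0.139), and without WT estradiol replicate 3 that of Exosc3 (adjusted p = 0.0535).

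Dis3 was higher in this comparison too (log2 0.34, SE 0.0514), and Ttc37 had 0.41. Side by side, Exosc5 had log2 differences from WT of 0.56 without and 0.64 with 5-ALA, Exosc7 of 0.53 and 0.42, Exosc1 of 0.34 and 0.36, and Exosc9 of 0.28 and 0.24.

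**Figure D5:**
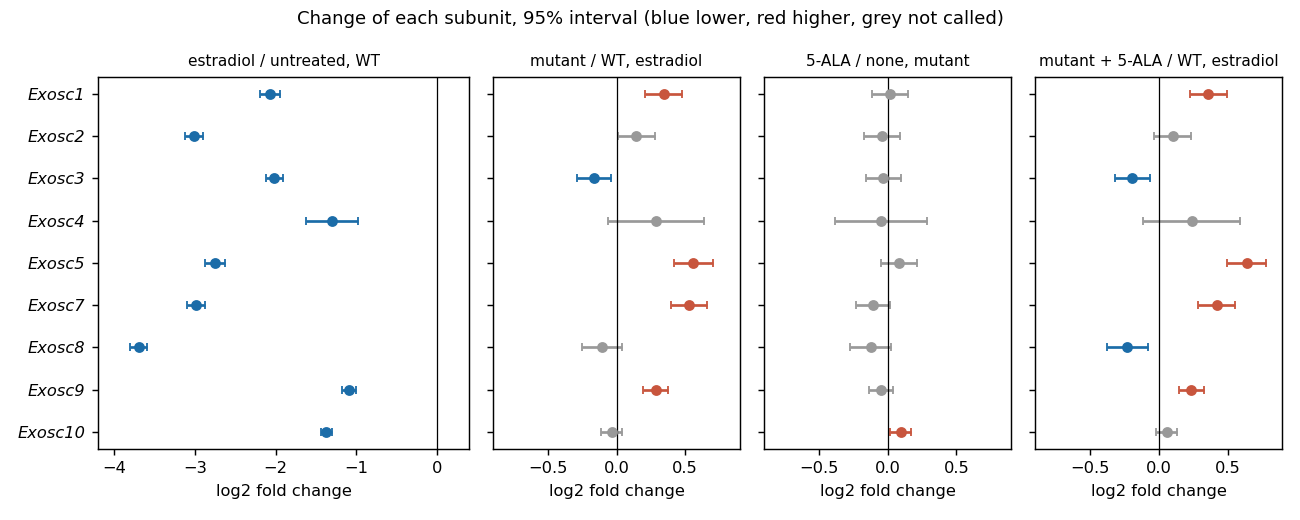
Points with 95% intervals give the log2 fold change of each subunit in 4 comparisons, blue for lower, red for higher and grey for not called; the first panel has a wider axis. With estradiol all 9 lie between -3.70 and -1.09, and in the other panels all lie between -0.23 and 0.64.

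The tables also give the mean transcript length of each gene, weighted by the estimated abundance of its transcripts. Exosc5 is listed with 1 transcript, at 1030 bases in every library. Exosc8 measured 829, 860.1 and 864 bases in untreated WT libraries and 869, 910.2 and 863 bases with estradiol. In mutant cells it measured 930.4, 984 and 944 bases, and with 5-ALA 904, 818 and 828 bases. Mutant libraries without 5-ALA were thus longer than those of both other treated groups without overlap, which 11.8% of 8266 genes with variable length also showed against WT cells. With 5-ALA, 7.95% of these genes were shorter without overlap. Exosc8 had only 160.3 to 351 counts in those mutant libraries, and the tables do not give the transcripts behind the lengths.

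Exosc10 measured 2588 ± 23.7 bases in untreated and 2455 ± 27.6 bases in estradiol-treated WT cells, and Exosc7 1009 ± 3.55 and 972 ± 18.7 bases. Both were shorter without overlap, as were 20.6% of the 8266 genes. With 5-ALA, Exosc10 was shorter again without overlap, at 2417 ± 28.3 against 2493 ± 34.5 bases. No other member had lengths that parted the libraries of a comparison.

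The genes most like the subunits over the 4 groups were found by the distance between group means of log2(TPM + 1), centred per gene, and the mean centred profile of the 9 subunits. Among 7254 other genes with at least 10 TPM, the 5 nearest were Snrnp40 (distance 0.0639), Rfc5 (0.0663), Fam206a (0.0736), Rnf219 (0.0778) and Cox18 (0.0873). Snrnp40 encodes a component of a spliceosomal particle, Rfc5 a subunit of the clamp loader of DNA replication, and Cox18 a mitochondrial assembly factor. Snrnp40 had 223 ± 8.24, 46.6 ± 1.62, 52.9 ± 2.93 and 51.2 ± 0.663 CPM over the 4 groups. The distances of the subunits from their own mean profile ran from 0.294 (Exosc1) and 0.295 (Exosc3) to 0.981 (Exosc9) and 1.53 (Exosc8). The 5 genes were picked as the nearest of 7254 and the subunits were not, so the 2 sets of distances cannot be weighed against each other.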

How the data were processed

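The 12 libraries, 3 in each group, were made from TRIzol-purified RNA with a TruSeq kit, per the labels. Bowtie 1.1.1, RSEM 1.2.20, CASAVA 1.8.2 and the build mm10 are listed in the submitters' processing notes. The annotation release and strand setting were not given in the sources used here. Per gene, the authors deposited the expected count from RSEM, length-scaled TPM and FPKM (the latter not used), and another column with transcript length. Symbols and positions came from GENCODE M21 (GRCm38), which named 24746 of 25097 identifiers.

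Expected counts were rounded. After filterByExpr, 12115 genes remained; TMM factors were applied, and edgeR 4.0.16 (R 4.3.3) estimated 4 group means from the 12 libraries. Robust quasi-likelihood F tests were adjusted by Benjamini-Hochberg over these genes, and a call is an adjusted p below 0.05. SEs divide the size of the log2 fold change by the root of F, an approximation that the 95% intervals also use. The members, lists and motifs were chosen with earlier results of these data known. Named from each list and comparison were up to 3 called genes with the largest changes and a mean of at least 1 CPM, and all genes of lists of 4 or fewer. Gata1, Foxo3, Kit, Alas2, neighbours starting within 1000 bases or sharing exons, and the 5 nearest profiles were also named. Alternatives used DESeq2 1.42.0 (size factors, test), limma 3.58.1 on log2(TPM + 1) and log2(TPM + 0.1), other filters, fits of 2 groups, a replicate block and leaving out each library. Of the genes the naming rule covers, 1 is not reported here.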

Additional observations from a re-analysis of the deposited data

How the results depend on the processing

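With estradiol in WT cells, all 9 subunits were lower in all 20 alternatives. In mutant against WT cells, the count of lower subunits (1, Exosc3) was 0 in limma on log2(TPM + 1) and on log2(TPM + 0.1) and 0 to 1 when 1 library was left out, while the count of higher ones (4) ran from 4 to 6; the cause was not tested. With 5-ALA, the count of higher subunits (1, Exosc10) was 0 in the DESeq2 test, without a low-count filter, in both TPM fits and in the fit of 2 groups, and 0 to 1 when 1 library was left out. The count of lower ones (0 in edgeR, with 1 unadjusted p below 0.05 among the 9, that of Exosc10) was 6 in both TPM fits, where the median of all genes moved to -0.15 and -0.19. In mutant cells with 5-ALA against WT cells, the count of lower subunits (2) was 1 to 2 when 1 library was left out.

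Signs turned only for small differences. On the log2(TPM + 1) and log2(TPM + 0.1) scales, Exosc10 in mutant against WT cells was 0.14 and 0.14, and with 5-ALA Exosc1 was -0.19 and -0.20, Exosc5 -0.12 and -0.13, and Exosc10 -0.067 and -0.069. Leaving out 1 library turned the sign of 3 differences with 5-ALA, which then ranged from -0.068 to 0.050 for Exosc1, from -0.077 to 0.033 for Exosc3 and from -0.15 to 0.083 for Exosc4.

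Over all groups the replicate numbers did not clearly pair the libraries: 3 of 18 same-numbered pairs correlated above 0.1, and the own number was best in 10 of 36 cases. Between mutant cells without and with 5-ALA, same-numbered pairs had 0.161, 0.032 and 0.164, and other pairs -0.189 to 0.042. With 3 libraries per group, such correlations cannot exclude pairing. With the number as a replicate block the counts were unchanged, at 9 lower with estradiol, 4 higher and 1 lower in mutant cells, 1 higher with 5-ALA, and 4 higher and 2 lower in mutant cells with 5-ALA. Exosc4 had the widest interval in all 4 comparisons. In mutant against WT cells its SE was 0.158, and that of Exosc8 was 0.0709. Their mean expected counts in mutant libraries were 291 (Exosc4) and 256 (Exosc8). The part of depth in these widths was not tested.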
